A study of Rattus norvegicus with 12 samples.

Results

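Immediate early and stress response genes were followed in rat liver across sex, removal of the pituitary and growth hormone (GH) replacement. The set held 39 genes chosen by name, with earlier results of these data known. They were AP-1 subunits, zinc finger and other transcription factors, orphan nuclear receptors, kinase phosphatases, growth arrest genes, feedback regulators and matricellular proteins. Of these, 38 were found by gene name on the array, out of 12363 named genes with a symbol in the reference table, and each was represented by its brightest probe. The calcineurin inhibitor Rcan1 was not found by name, and a probe that the files call Dscr1 matched its reference transcript. Its values are therefore given apart, and it is in no count of tested or called members except those of promoters. The probe of Fosl1, an AP-1 subunit, was tested in no comparison because neither RNA was well above background on both arrays, which left 37 tested members.

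Livers were from Fischer 344 rats at 12 weeks of age, and their RNA was hybridised in pairs to 12 oligonucleotide arrays. There were 6 direct comparisons with 2 arrays each, on which the dyes were swapped, between untreated males, untreated females, hypophysectomised males, hypophysectomised females (each in pools of 3 to 4 livers) and hypophysectomised males injected with GH. GH was given 1 time, with the livers of 1 pool of 4 animals taken 30, 60 or 90 min later, or 2 times at an interval of 3 or 4 h, with 1 pool of 5 livers. The labels do not state the kill time after the last of the 2 injections, and each GH pool was hybridised on both arrays of its comparison. The 1-injection pool mixes 3 times, so no time course can be read from it.

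Immediate early genes are transcribed within minutes of a stimulus from factors already present in the cell, without new protein synthesis. Most encode short-lived transcription factors or inhibitors that end the signal that induced them. Hypophysectomy removes the pituitary, the source of GH and of the hormones that drive the thyroid, the adrenal cortex and the gonads. In the liver GH binds its receptor, activates the kinase JAK2 and the transcription factor STAT5b, and also feeds the ERK kinase cascade, which acts on serum response factor and on cAMP response element binding proteins.

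Values are log2 ratios, first-named RNA over second, so that 1 is a 2-fold difference. Values of the single arrays are given first, as array 1 and array 2 with the dye effect still in them. The fitted ratio follows with ± SE from limma over n = 2 arrays and all 12 arrays' spread, and a gene with an adjusted p under 0.05 was called. The hepatocyte markers Alb, Ttr, Tf, Apoa1, Apoc3, Fgb, Serpina1 and Hnf4a were well above background in both colours on all 12 arrays. The share of probes well above background was 58.9% to 71.7% over dyes and arrays. With 2 arrays a comparison, their number sets the precision. The GH targets Igf1 and Socs2 had ratios of -3.48 ± 0.44 and -1.98 ± 0.13 after hypophysectomy of males and of 2.31 ± 0.44 and 2.16 ± 0.13 after 1 GH injection, that is lower without the pituitary and higher with GH. Both GH comparisons lay on the same slide and share the hypophysectomised male RNA, which is also in the comparison with untreated males. Fewer cells of a type and less RNA per cell cannot be told apart in these bulk pools.

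Before the members' values, 1 feature of the arrays has to be described because it touches several of them. In the 4 comparisons that hold hypophysectomised male RNA, 8 of the 37 tested members (21.6%) had that RNA higher on array 2 than on array 1 by over 0.5 in all 4, against 1.15% of 9726 named genes. None of the 37 was lower by over 0.5 in all 4, against 0.339% of the named genes (the limit of 0.5 was chosen after the gaps were seen). The 8 were Klf10, Nr4a1, Dusp6, Dusp1, Egr1, Jun, Ctgf and Rhob. For Nr4a1 the gap was 2.05, 2.24, 2.21 and 2.22 in the comparisons with untreated males, hypophysectomised females, 1 injection and 2 injections. For Klf10 it ran from 1.92 to 3.73, for Dusp6 from 0.86 to 2.01, for Dusp1 from 0.89 to 1.72, for Egr1 from 0.66 to 1.23 and for Jun from 0.66 to 1.10. The hypophysectomised male RNA of array 2 carried Alexa 647 in the comparison with untreated males and Alexa 555 in the other 3, so the gap had the same sign under both dyes. These gaps still hold the dye effect, and the count of 8 can depend on it. The dye coefficients of the 8 were all negative, from -0.78 (Klf10) to -0.03 (Dusp1), with -0.28 for Dusp6, -0.18 for Ctgf and -0.09 for Rhob. A negative coefficient widens the gap in those 3 comparisons and narrows it in the comparison with untreated males. The count was not recomputed without the dye effect. According to the design text the 2 arrays of a dye swap hold separate pools except for GH (which pool was on which array is not stated), so a difference between pools and another difference between array numbers cannot be told apart. Over all tested probes the gaps between array numbers, turned to follow this RNA and with the dye effect taken out, had correlations of 0.32 to 0.84 in all 6 pairs of the 4 comparisons. Correlated gaps were not confined to these pairs. With signs unturned, hypophysectomised over untreated females, which lacks this RNA, had -0.53 with 1 injection and -0.48 with 2. Untreated males over females, which also lacks it, had 0.35 and 0.41. A term for the gap of the hypophysectomised male RNA was added after the values were seen and left the fitted ratios as they are. It raised the number of members called to 19 of 35 after 1 GH injection and 29 of 37 after 2. After hypophysectomy the number rose to 23 of 36 in males and 25 of 34 in females, and between untreated sexes to 16 of 35. The shares of all named genes called rose with them, to 31.7%, 46.9%, 53.0%, 52.1% and 30.7%. The widest spread in the set belonged to 4 of the 8: the residual SD over the 12 arrays was 1.44 for Klf10, 1.25 for Nr4a1, 0.88 for Dusp6 and 0.77 for Dusp1, against a median of 0.24 over the members and 0.10 over all named genes tested.

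**Figure D1:**
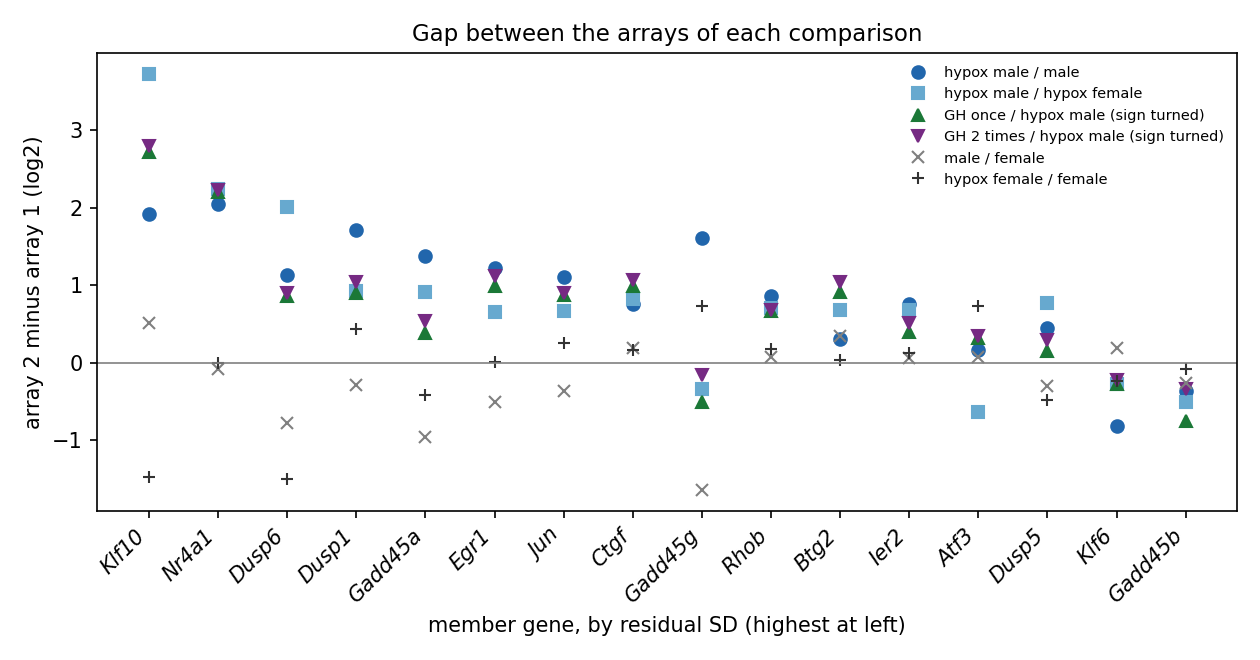
Gap between array 2 and array 1 (log2, vertical axis) for the 16 members with the highest residual SD (horizontal axis), 1 symbol per comparison, with the sign of the GH comparisons turned so that all filled symbols follow the hypophysectomised male RNA. For Nr4a1 the 4 filled symbols lie between 2.05 and 2.24, while the crosses of the 2 comparisons without that RNA lie near 0. The dye effect is still in these gaps.

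The promoters of a few responsive members are shown first, since cAMP response elements (CRE) and CArG boxes are the classical entry points of early gene induction. Of the 39 genes 30 had a promoter in the RefSeq table (build GRCr8), and the 250 bases before the gene start were searched on both strands. Fos, Jun, Egr3, Klf2, Klf10, Atf3, Myc, Nr4a3 and Ier3 had none there. The full CRE, TGACGTCA, was found in 6 of the 30 (20%), against 1.7% of 27456 promoters of the same length. Its shorter form TGACG, which is part of the full CRE, was in 19 of the 30 (63.3%), against 19% of all promoters. The CArG box, the site of serum response factor, was in 5 of the 30 (16.7%), against 1.5%. The AP-1 site TGANTCA was in Rcan1 alone (3.33%, against 6.36%), and the STAT5-type site TTCNNNGAA was in Klf4 and Ier2 (6.67%, against 7.52%). The members' windows had a median GC content of 62%, against 52% for all promoters, and the background was not matched for it.

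Printed here are the 6 promoters with a full CRE or a CArG box among the 9 listed promoters of members that were at least 2-fold higher after 2 GH injections. Rcan1 is left out of the 9 and the 6, as it was matched through the Dscr1 probe. That probe was 7.07-fold higher after 2 injections, and the full CRE of Rcan1 begins 207 bases before the start. Capitals mark matches to the 5 motifs, 5′ to 3′ along the gene's strand. The windows with a full CRE lie at chr16:18769772-18770021 (minus strand) for Jund, chr10:17184603-17184852 (plus strand) for Dusp1 and chr13:48087691-48087940 (minus strand) for Btg2. Those with a CArG box lie at chr18:26736828-26737077 (plus strand) for Egr1, chr1:262543524-262543773 (plus strand) for Dusp5 and chr17:69458479-69458728 (minus strand) for Klf6.
Jund: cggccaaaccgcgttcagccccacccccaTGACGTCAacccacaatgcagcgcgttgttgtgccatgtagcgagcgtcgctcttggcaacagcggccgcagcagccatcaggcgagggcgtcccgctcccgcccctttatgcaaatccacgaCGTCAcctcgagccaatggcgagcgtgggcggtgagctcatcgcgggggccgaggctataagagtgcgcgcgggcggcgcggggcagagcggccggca
Dusp1: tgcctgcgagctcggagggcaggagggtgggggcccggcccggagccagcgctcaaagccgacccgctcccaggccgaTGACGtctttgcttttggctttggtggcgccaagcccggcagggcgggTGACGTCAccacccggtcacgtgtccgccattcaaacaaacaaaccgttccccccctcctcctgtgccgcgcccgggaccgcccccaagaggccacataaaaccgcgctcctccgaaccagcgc
Btg2: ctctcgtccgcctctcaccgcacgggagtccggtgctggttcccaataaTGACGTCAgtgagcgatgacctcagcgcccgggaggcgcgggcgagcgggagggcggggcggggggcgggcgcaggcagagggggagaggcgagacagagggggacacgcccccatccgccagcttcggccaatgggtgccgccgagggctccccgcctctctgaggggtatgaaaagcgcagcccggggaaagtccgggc
Egr1: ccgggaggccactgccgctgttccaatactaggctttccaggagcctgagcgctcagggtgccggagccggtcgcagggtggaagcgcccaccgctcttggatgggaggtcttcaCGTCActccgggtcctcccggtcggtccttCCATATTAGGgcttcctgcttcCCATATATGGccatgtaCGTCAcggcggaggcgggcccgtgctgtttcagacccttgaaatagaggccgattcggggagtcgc
Dusp5: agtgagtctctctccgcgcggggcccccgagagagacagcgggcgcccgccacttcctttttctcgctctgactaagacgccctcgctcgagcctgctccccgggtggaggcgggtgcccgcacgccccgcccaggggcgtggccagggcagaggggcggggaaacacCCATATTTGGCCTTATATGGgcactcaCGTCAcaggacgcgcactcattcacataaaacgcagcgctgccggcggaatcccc
Klf6: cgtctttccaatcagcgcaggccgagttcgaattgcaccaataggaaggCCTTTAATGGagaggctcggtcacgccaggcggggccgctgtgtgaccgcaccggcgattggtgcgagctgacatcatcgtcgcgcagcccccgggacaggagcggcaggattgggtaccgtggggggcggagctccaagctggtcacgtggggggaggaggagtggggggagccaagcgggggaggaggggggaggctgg

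**Figure D2:**
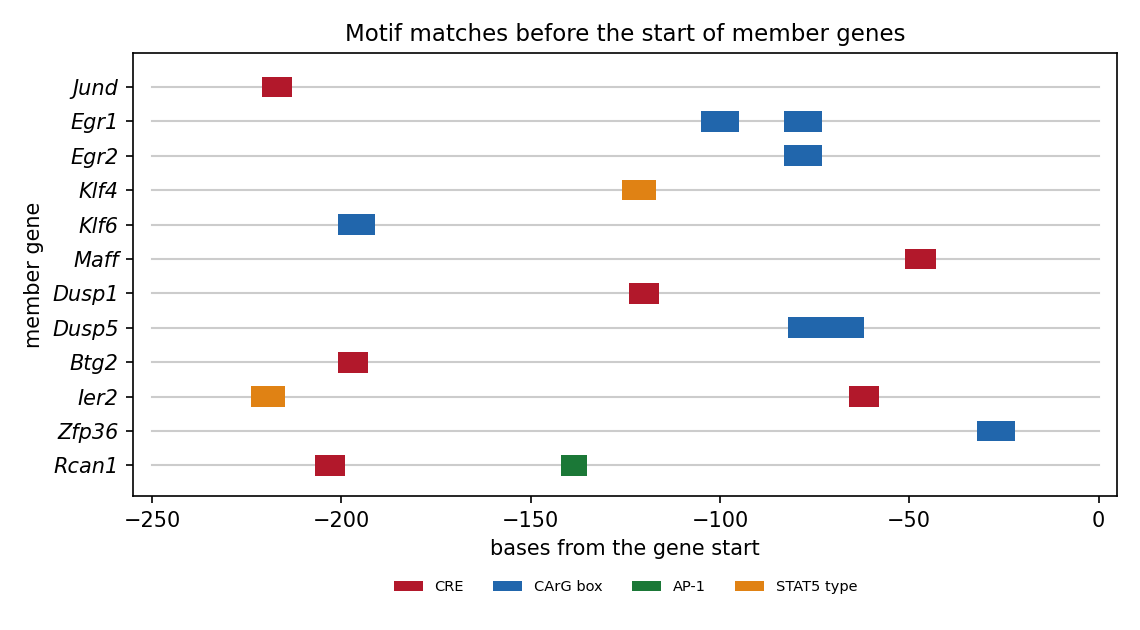
Matches to the full CRE, CArG box, AP-1 and STAT5-type motifs in the 250 bases before the start of the 12 members that hold any (horizontal axis, bases from the gene start, short CRE matches left out). Egr1 has 2 CArG boxes, Dusp5 has 2 that lie side by side, and the full CRE begins between 221 bases (Jund) and 51 bases (Maff) before the start.

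In Egr1 the CArG boxes begin 105 and 83 bases before the start, and in Dusp5, a nuclear ERK phosphatase, they begin 82 and 72 bases before it. Egr2, a relative of Egr1, has its CArG box at the same distance of 83 bases as the nearer box of Egr1. All 5 genes with a CArG box (Egr1, Egr2, Klf6, Dusp5 and Zfp36) were among the 18 members with a promoter that were higher after 2 GH injections (Rcan1 counted through its Dscr1 probe), and 0 of the other 12 held one. The full CRE was in 5 of those 18 (Jund, Dusp1, Btg2, Ier2 and Rcan1) and in 1 of the other 12 (Maff). These shares were not tested against each other. A match describes letters in this window and was not tested as a binding site.

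After 2 GH injections 22 of 37 tested members were higher than in untreated hypophysectomised males and 1 was lower (limma, adjusted p under 0.05). Across all 9591 named genes tested, 18.5% were higher and 18.2% lower. The members were chosen with earlier results of these data known, so these shares describe the set and do not test it. The median log2 ratio of the tested members was 0.61, against -0.01 for all genes. Of the called members 13 were at least 2-fold higher. The share of all genes at least 2-fold higher is not given, so that count is not read as a trait of the members. After 1 injection 10 of 35 were higher and 2 lower, against 9.33% and 7.33% of all genes, with a median of 0.19 against 0.00. Higher after 1 injection were Jun, Egr1, Atf3, Myc, Nfil3, Dusp5, Gadd45a, Gadd45g, Ier3 and Mcl1. Higher after 2 were Jun, Junb, Jund, Egr1, Egr2, Klf4, Klf6, Atf3, Crem, Myc, Nfil3, Nr4a3, Dusp1, Dusp5, Gadd45a, Gadd45g, Btg2, Ier2, Ier3, Mcl1, Zfp36 and Rhob. The comparisons share their control RNA, and across all genes too more were called after 2 injections than after 1. Without array 1 the members called were 12 after 2 injections and 6 after 1, in place of 23 and 12, and without array 2 they were 19 and 6. With median centring in place of loess 1 member was called after 2 injections and 0 after 1 (limma).

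**Figure D3:**
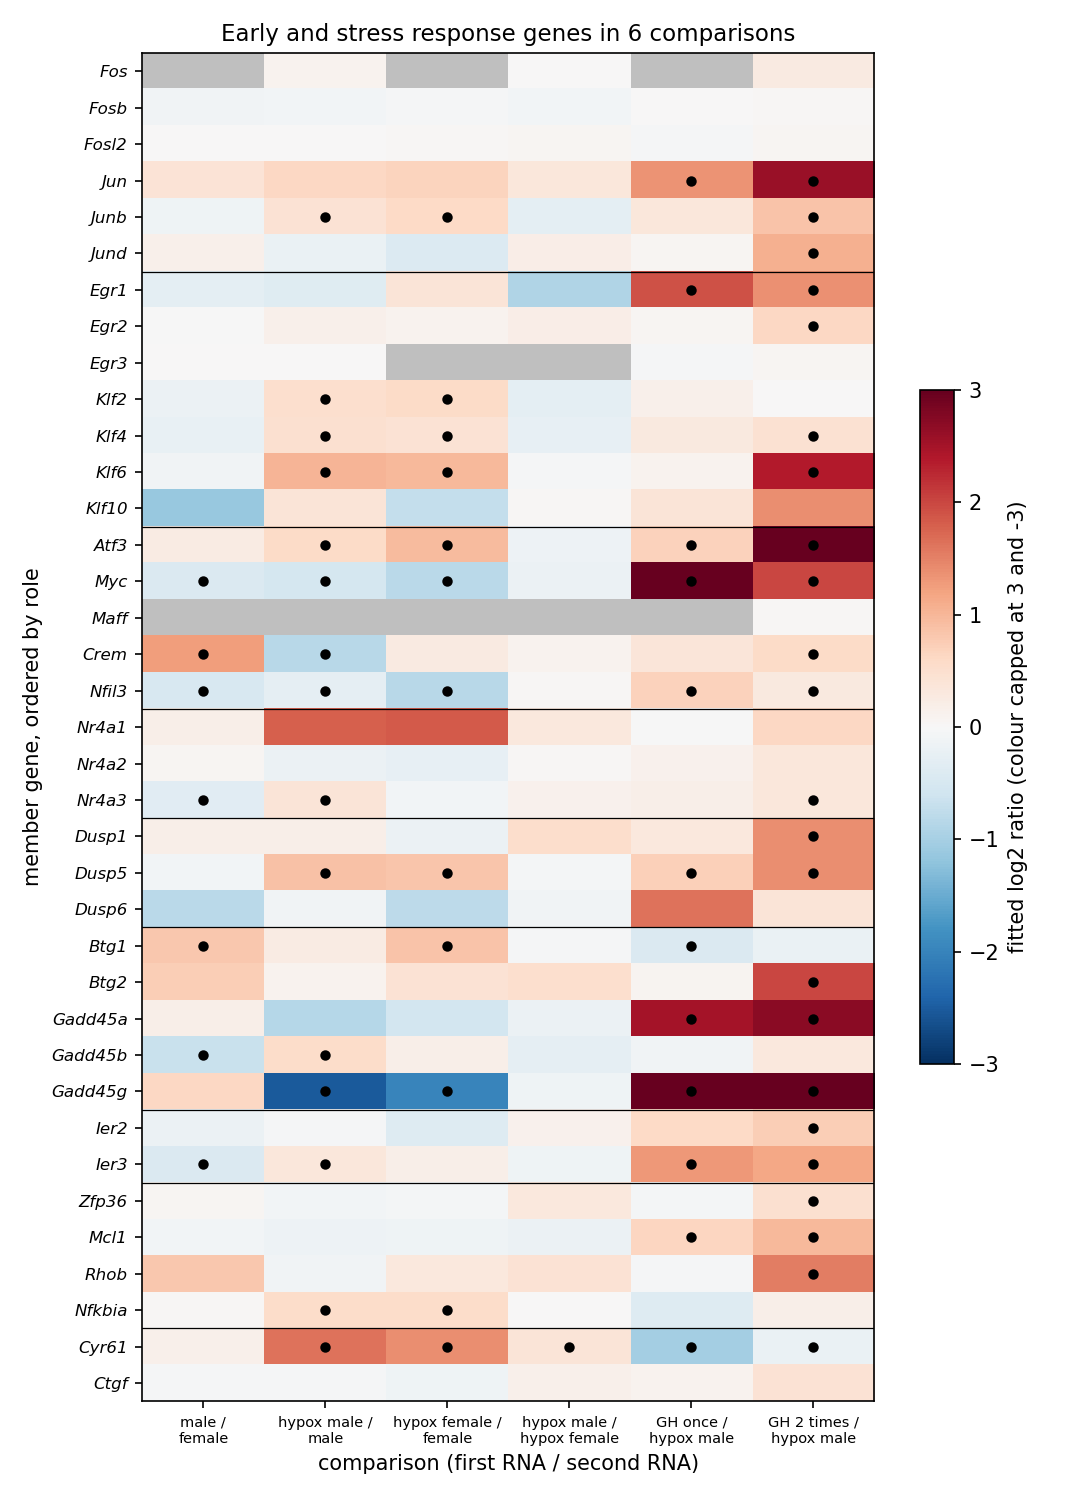
Fitted log2 ratio (colour, capped at 3 and -3) of the 37 tested members (rows, by role) in the 6 comparisons (columns), with a dot where the adjusted p was under 0.05 and grey where a gene was not tested. The column of 2 GH injections holds 22 red cells with a dot and 1 blue one, Cyr61, while the column of hypophysectomised males over hypophysectomised females holds 1 dot.

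AP-1 is a dimer of a Jun with a Fos protein, and the calls among its subunits were for the 3 Jun proteins. Jun, the most studied subunit, had ratios of 1.79 and 0.91 on the arrays of 1 injection and 3.04 and 2.13 on those of 2. The fitted values were 1.35 ± 0.33 (2.54-fold, adjusted p = 0.0295) and 2.59 ± 0.33 (6.00-fold, adjusted p = 0.000558). All 4 arrays had Jun higher with GH, and array 1 gave the higher value in both comparisons. The call after 1 injection was lost without array 1 (0.89, adjusted p = 0.406) and without array 2 (1.80, adjusted p = 0.117). With the replicate number as a block its adjusted p was 0.0525. Jund, the constitutive relative, was at 0.15 and -0.06 after 1 injection and at 1.28 and 0.86 after 2 (1.07 ± 0.14, 2.10-fold, adjusted p = 0.00061). That call rested on 1 of 2 probes of Jund: the dimmer probe had 0.18 ± 0.06 after 2 injections (adjusted p = 0.0566). Junb was at 0.08 and 0.60 after 1 injection and at 0.84 and 0.88 after 2 (0.86 ± 0.11, adjusted p = 0.000515).

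No Fos protein was called. Fos itself was well above background in 12 of 24 RNA readings and was tested in 3 comparisons. Its arrays of 2 injections were at 0.48 and 0.06 (0.27 ± 0.10, adjusted p = 0.0765). Fosb and Fosl2 were tested in all 6 comparisons with fitted ratios from -0.10 to 0.06.

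Egr1, a zinc finger factor induced through serum response factor, was called in both GH comparisons. Its ratios were 2.41 and 1.42 after 1 injection (1.91 ± 0.37, 3.77-fold, adjusted p = 0.0117) and 1.94 and 0.82 after 2 (1.38 ± 0.37, 2.60-fold, adjusted p = 0.0215). Every array had Egr1 higher with GH, with array 1 above array 2 in both. Without array 1 the values were 1.42 (adjusted p = 0.24) and 0.81 (adjusted p = 0.407), and without array 2 the call after 1 injection was lost as well (2.41, adjusted p = 0.0786). Egr2 was at 0.33 and -0.23 after 1 injection and at 0.83 and 0.40 after 2 (0.61 ± 0.16, adjusted p = 0.0194). Egr3 was tested in 4 comparisons and had fitted ratios from -0.04 to 0.05 in them.

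Klf6, a Krüppel-like factor that stellate cells of the liver induce on injury, was at -0.04 and 0.23 on the arrays of 1 injection and at 2.28 and 2.50 on those of 2 (2.39 ± 0.18, 5.24-fold, adjusted p = 3.89e-05), with no overlap. A further probe of Klf6 gave 0.07 ± 0.17 and 2.13 ± 0.17. Klf4 was at 0.77 and 0.15 after 2 injections (0.46 ± 0.14, adjusted p = 0.0405). Klf2, which responds to blood flow in endothelium, had 0.14 ± 0.13 and 0.00 ± 0.13 in the GH comparisons. Klf10, induced by TGF-beta, could not be read: its arrays were at 1.75 and -0.97 after 1 injection and at 2.78 and -0.01 after 2, with an SE of 0.80 (0.64 for a further probe).

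Atf3, a stress-induced repressor of the CREB family, was at 0.85 and 0.53 after 1 injection (0.69 ± 0.19, 1.61-fold, adjusted p = 0.0463). After 2 injections it was at 3.55 and 3.21 (3.38 ± 0.19, 10.4-fold, adjusted p = 1.15e-05), the highest ratio of any member but Gadd45g in that comparison. Myc, a driver of cell growth and ribosome production, ran the other way, with 2.93 and 3.09 after 1 injection (3.01 ± 0.07, 8.05-fold, adjusted p = 1.8e-06) and 2.03 and 1.95 after 2 (1.99 ± 0.07, 3.98-fold, adjusted p = 2.22e-06). For both genes the arrays of the 2 regimens do not overlap. Nfil3, a bZIP repressor of clock output genes, was at 0.59 and 0.78 after 1 injection (0.68 ± 0.08) and at 0.28 and 0.32 after 2 (0.30 ± 0.08). Crem, which also encodes the cAMP-induced repressor ICER, was at 0.80 and 0.37 after 2 injections (0.58 ± 0.14, adjusted p = 0.0127). The small Maf protein Maff was tested only there, at 0.04 ± 0.08.

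The orphan nuclear receptors gave 1 call with GH: Nr4a3 at 0.43 and 0.25 after 2 injections (0.34 ± 0.09, adjusted p = 0.0182). Its 2 further probes had 0.27 ± 0.07 (adjusted p = 0.0219) and 0.14 ± 0.07 (adjusted p = 0.174). Nr4a1 was at 1.09 and -1.12 after 1 injection and at 1.74 and -0.48 after 2, so each pair straddled 0 by the gap described above. Nr4a2 was at 0.53 and 0.17 after 2 injections (0.35 ± 0.12, adjusted p = 0.057).

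Of the phosphatases that switch off MAP kinases, Dusp5 was at 0.79 and 0.64 after 1 injection (0.71 ± 0.19, adjusted p = 0.0405) and at 1.55 and 1.26 after 2 (1.40 ± 0.19, 2.65-fold, adjusted p = 0.000757). Dusp1, which acts on p38, JNK and ERK, was at 0.77 and -0.12 after 1 injection and at 1.92 and 0.88 after 2 (1.40 ± 0.43, adjusted p = 0.0393). That call was lost without array 1 (0.82, adjusted p = 0.526), without array 2 (1.98, adjusted p = 0.0752) and with the replicate block (adjusted p = 0.0609). Dusp6, the cytoplasmic ERK phosphatase, was at 2.06 and 1.20 after 1 injection (1.63 ± 0.49, adjusted p = 0.0647) and at 0.84 and -0.06 after 2.

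Among the growth arrest genes 2 of the 3 Gadd45 members were called in both GH comparisons. Gadd45g, a stress sensor that binds an upstream kinase of p38 and JNK, was at 2.78 and 3.29 after 1 injection (3.03 ± 0.26, 8.18-fold, adjusted p = 0.000332) and at 3.47 and 3.63 after 2 (3.55 ± 0.26, 11.7-fold, adjusted p = 3.67e-05). Gadd45a, its p53-responsive relative, was at 2.68 and 2.30 after 1 injection (2.49 ± 0.37, 5.62-fold, adjusted p = 0.00409) and at 2.98 and 2.44 after 2 (2.71 ± 0.37, 6.54-fold, adjusted p = 0.0008). Both genes were above 2, or 4-fold, on all 4 GH arrays. For Gadd45a the call after 1 injection was lost without array 1 (2.25, adjusted p = 0.108) and without array 2 (2.73, adjusted p = 0.0694). The remaining member of the trio, Gadd45b, was at -0.48 and 0.27 after 1 injection and at 0.14 and 0.48 after 2, and it was not called in either. Btg2, an antiproliferative protein that recruits the mRNA deadenylase, was at 0.53 and -0.38 after 1 injection and at 2.52 and 1.47 after 2 (2.00 ± 0.22, 3.99-fold, adjusted p = 0.000258). Its relative Btg1 was lower after 1 injection, at -0.65 and -0.20 (-0.42 ± 0.10, adjusted p = 0.0284), and was at -0.45 and 0.06 after 2.

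**Figure D4:**
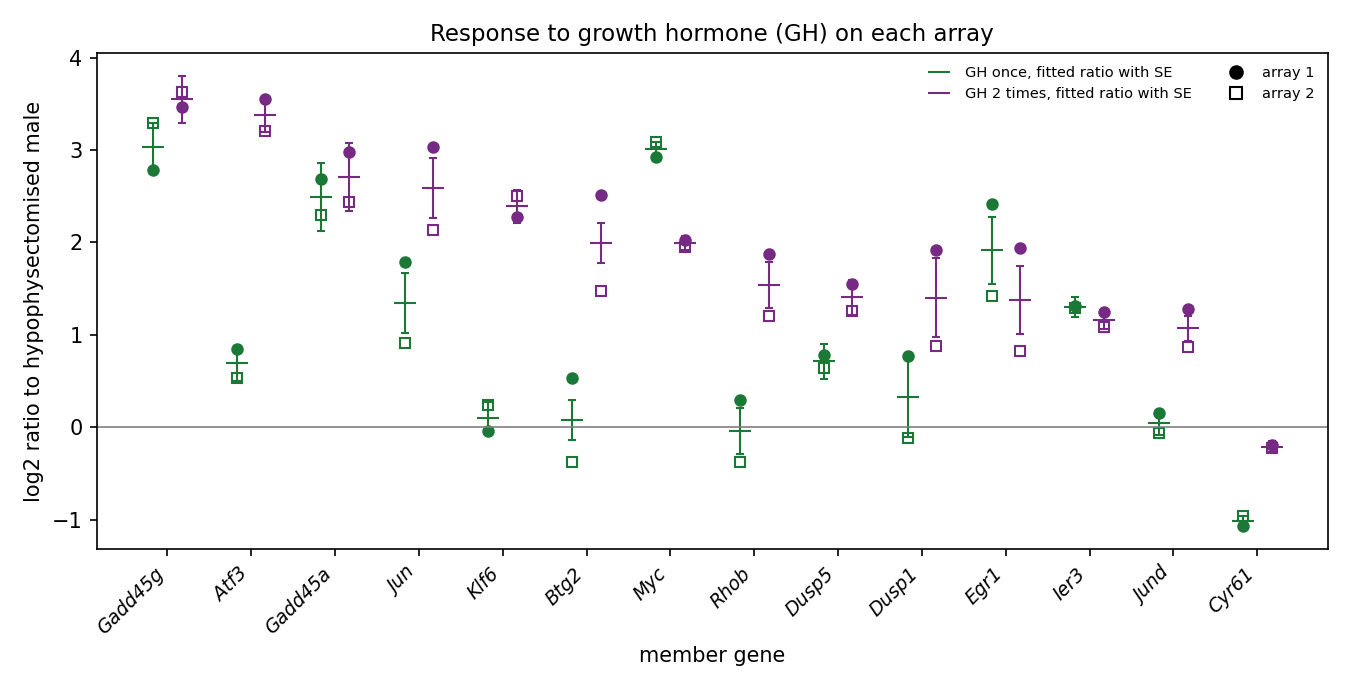
Log2 ratio to hypophysectomised males (vertical axis) after GH given 1 time (green) or 2 times (purple) for the 14 members called with an absolute ratio of at least 1 in either comparison, with filled circles for array 1, open squares for array 2 and bars for the fitted ratio ± SE. Atf3, Klf6, Btg2, Rhob and Jund lie higher after 2 injections on both arrays, and so do Jun, Dusp1, Dusp5, Gadd45a and Gadd45g. Myc, Egr1 and Ier3 lie higher after 1 on both arrays, and Cyr61 lies below 0 in both comparisons, less so after 2. The difference between regimens was not called for Jun, Dusp1, Dusp5, Gadd45a, Gadd45g, Egr1 and Ier3.

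Ier3, an anti-apoptotic early response protein, was at 1.31 and 1.29 after 1 injection (1.30 ± 0.10, 2.46-fold, adjusted p = 0.000271) and at 1.24 and 1.08 after 2 (1.16 ± 0.10, 2.24-fold, adjusted p = 0.000106). Ier2 was at 0.79 and 0.40 after 1 injection (adjusted p = 0.1) and at 1.00 and 0.48 after 2 (0.74 ± 0.21, adjusted p = 0.0287). Mcl1, a survival protein of the Bcl2 family, was at 0.63 and 0.67, then at 1.06 and 0.86 (0.65 ± 0.06 and 0.96 ± 0.06). A further probe of Mcl1 gave 0.79 ± 0.05 and 0.90 ± 0.05, and a dim probe that was not tested gave -0.01 ± 0.07 and 0.06 ± 0.07. Zfp36, which destabilises AU-rich mRNAs, was at 0.69 and 0.27 after 2 injections (0.48 ± 0.15, adjusted p = 0.0404). The small GTPase Rhob was at 0.29 and -0.38 after 1 injection and at 1.88 and 1.20 after 2 (1.54 ± 0.25, 2.91-fold, adjusted p = 0.00209), and that call was lost without array 1 (1.24, adjusted p = 0.0714). Nfkbia, the inhibitor that holds NF-kappaB in the cytoplasm, was not called with GH by its brightest probe (-0.39 ± 0.14 and 0.17 ± 0.14). A further probe of Nfkbia was called in both comparisons, at -0.30 ± 0.06 (adjusted p = 0.02) after 1 injection and 0.20 ± 0.06 (adjusted p = 0.0462) after 2, and differed between them by 0.50 ± 0.09 (adjusted p = 0.0136). The Dscr1 probe matched to Rcan1 was at 3.28 and 2.08 after 1 injection (2.68 ± 0.48, adjusted p = 0.00936) and at 3.48 and 2.16 after 2 (2.82 ± 0.48, adjusted p = 0.00271), with the same gap between array numbers (1.20 to 1.99).

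Cyr61 fell. This secreted matricellular protein, a target of the growth regulator YAP, was at -1.07 and -0.97 after 1 injection (-1.02 ± 0.06, 2.03-fold lower, adjusted p = 7.85e-05) and at -0.20 and -0.22 after 2 (-0.21 ± 0.06, adjusted p = 0.0318). A further probe gave -0.81 ± 0.06 and -0.11 ± 0.06, the latter not called (adjusted p = 0.201). Its relative Ctgf was at 0.60 and -0.39 after 1 injection and at 0.97 and -0.10 after 2 and was called in none of the 6 comparisons.

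The 2 GH regimens were set against each other through the hypophysectomised male RNA they share. Of 35 members tested, 6 were higher after 2 injections than after 1 and 1 was lower, against 7.40% and 5.64% of 9097 named genes. Higher were Atf3 by 2.69 ± 0.27 (6.45-fold, adjusted p = 0.00125), Klf6 by 2.29 ± 0.25 (4.90-fold, adjusted p = 0.00178) and Btg2 by 1.92 ± 0.30 (3.78-fold, adjusted p = 0.00785). Rhob was higher by 1.58 ± 0.35 (adjusted p = 0.0286), Jund by 1.02 ± 0.19 (adjusted p = 0.0152) and Cyr61 by 0.81 ± 0.09 (adjusted p = 0.00176), which for Cyr61 is a smaller fall. The dimmer probe of Jund was not tested for this difference (0.14 ± 0.09). Myc was lower after 2 injections (-1.02 ± 0.11, adjusted p = 0.00156). The median difference over the members was 0.32, against -0.01 over all genes. The difference was 1.24 ± 0.46 for Jun, 0.51 ± 0.36 for Gadd45g and 0.22 ± 0.52 for Gadd45a, and these were not called. With array 1 or array 2 of both comparisons left out, 1 member was called in each case. Klf6 had 2.27 (adjusted p = 0.0918) and 2.32 (adjusted p = 0.0589), Btg2 1.85 (adjusted p = 0.125) and 1.98 (adjusted p = 0.074), Myc -1.14 (adjusted p = 0.0519) and -0.90 (adjusted p = 0.0623), Jund 0.92 (adjusted p = 0.275) and 1.12 (adjusted p = 0.153), and Rhob 1.58 on both (adjusted p = 0.278 and 0.221).

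After removal of the pituitary the members were called about as often as all genes were. In males 11 of 36 tested members were higher after hypophysectomy and 4 lower, against 20.1% and 20.9% of 8921 named genes. This split rested on array 2: without it 4 were higher and 9 lower, with 8 of these 13 among the 15, and with this comparison's own arrays alone 4 were higher and 3 lower. In females 9 of 34 were higher and 3 lower, against 19.0% and 20.6% of 8479. The medians were 0.10 in males and 0.14 in females, against 0.00 and -0.01 over all genes. The share of members called was 41.7% in males and 35.3% in females, near the 41.0% and 39.6% of all genes. Of 34 members tested in both sexes 23.5% were higher and 8.82% lower in both, against 13.4% and 14.2% of 8437 named genes. They were 8 higher members (Junb, Klf2, Klf4, Klf6, Atf3, Dusp5, Nfkbia and Cyr61) and 3 lower ones (Myc, Nfil3 and Gadd45g). With median centring 1 member was called in males and 0 in females, and with array 1 or array 2 left out 6 and 7 were called in females.

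Gadd45g had the lowest ratios. It was at -3.31 and -1.71 in males (-2.51 ± 0.26, 5.69-fold lower, adjusted p = 0.000241) and at -2.35 and -1.62 in females (-1.99 ± 0.26, 3.96-fold lower, adjusted p = 0.000753). All 4 arrays were below -1.5. Array 1 had the lower value in both sexes, but these values still hold the dye effect (coefficient 0.42 ± 0.11). In both sexes array 1 carried Alexa 555 on the hypophysectomised RNA. Cyr61 had the highest called ratio, at 1.59 and 1.66 in males (1.63 ± 0.06, 3.09-fold, adjusted p = 1.54e-06) and at 1.34 and 1.45 in females (1.40 ± 0.06, 2.64-fold, adjusted p = 3.1e-06). Klf6 was at 1.42 and 0.60 in males (1.01 ± 0.18, 2.02-fold, adjusted p = 0.00294) and at 1.09 and 0.85 in females (0.97 ± 0.18, 1.96-fold, adjusted p = 0.00369). Dusp5 had 0.88 ± 0.19 and 0.82 ± 0.19 and Atf3 0.58 ± 0.19 and 0.95 ± 0.19 in males and females. Nfkbia had 0.55 ± 0.14 in each sex, Junb 0.43 ± 0.11 and 0.60 ± 0.11, Klf2 0.51 ± 0.13 and 0.58 ± 0.13, and Klf4 0.47 ± 0.14 and 0.44 ± 0.14. Nr4a1 had higher fitted values than Cyr61 but was not called: its arrays were at 0.76 and 2.82 in males (1.79 ± 0.70, adjusted p = 0.0763) and at 1.83 and 1.83 in females (1.83 ± 0.70, adjusted p = 0.0736). The Dscr1 probe matched to Rcan1 was at -2.28 and -0.86 in males (-1.57 ± 0.48, adjusted p = 0.0348) and at -0.77 and -1.55 in females (-1.16 ± 0.48, adjusted p = 0.0959).

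The GH comparisons share the hypophysectomised male RNA with the comparison of males, so values of a few members are set side by side without a count. After hypophysectomy of males, 1 injection and 2 injections, Gadd45g had -2.51, 3.03 and 3.55, and Myc -0.53, 3.01 and 1.99. Klf6 had 1.01, 0.10 and 2.39, Atf3 0.58, 0.69 and 3.38, and Cyr61 1.63, -1.02 and -0.21.

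The response to hypophysectomy differed between the sexes for 6 of 34 members. It was higher in males than in females for 4 and lower for 2, against 6.92% and 8.60% of 8371 named genes. With Agilent's processed signals the split was 2 and 2. The count was not stable: without array 1 of the 4 comparisons 19 were higher and 5 lower, which include all 6, without array 2 it was 6 and 15, which include 5 of the 6, and with the term for the gap of the hypophysectomised male RNA it was 15 in all. Crem had the largest difference (-1.12 ± 0.14, adjusted p = 0.00142): it was at -1.08 and -0.60 in males (-0.84 ± 0.14, adjusted p = 0.00227) and at 0.18 and 0.35 in females (0.26 ± 0.14, adjusted p = 0.174). Btg1 was at -0.08 and 0.57 in males and at 0.44 and 1.25 in females (0.85 ± 0.10, adjusted p = 0.000504), a difference of -0.72 ± 0.10 (adjusted p = 0.00293). Nfil3 fell in both sexes, by 0.28 in males and by 0.84 in females, a difference of 0.54 ± 0.08 (adjusted p = 0.00355). Nr4a3 was at 0.21 and 0.55 in males and at -0.11 and -0.06 in females, a difference of 0.46 ± 0.09 (adjusted p = 0.0102). That call rested on 1 of 3 probes of Nr4a3: the other probes had 0.03 ± 0.07 and 0.01 ± 0.07 in males, and their differences of 0.17 ± 0.07 and 0.08 ± 0.07 were not tested. Myc (-0.53 ± 0.07 and -0.80 ± 0.07) and Cyr61 differed by 0.27 ± 0.07 (adjusted p = 0.0495) and 0.23 ± 0.06 (adjusted p = 0.0446). A further probe of Cyr61 had a difference of 0.17 ± 0.06 (adjusted p = 0.093), and a further probe of Crem one of -1.01 ± 0.13 (adjusted p = 0.00161).

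**Figure D5:**
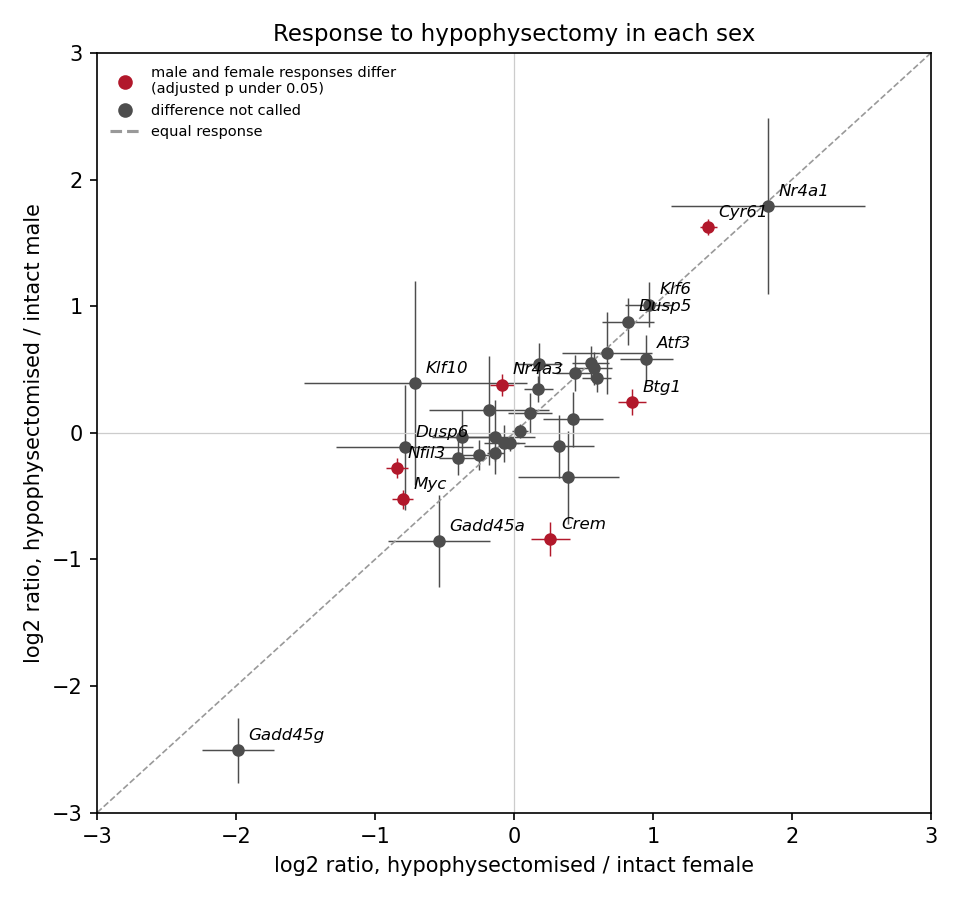
Log2 ratio of hypophysectomised to untreated males (vertical axis) against that of females (horizontal axis) for the 34 members tested in all 4 comparisons without GH, with bars of ± SE, the dashed line of equal response, and the 6 members whose responses differed in red. Gadd45g lies at the lower left (-2.51 and -1.99), Cyr61 at the upper right (1.63 and 1.40), and Crem lies below 0 in males only.

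Of 35 members tested between untreated males and females, males had 2 higher and 5 lower, against 9.33% and 8.94% of 8851 named genes. Crem was at 1.33 and 1.16 (1.24 ± 0.14, 2.37-fold, adjusted p = 0.000601), the sole member called with a 2-fold difference between the sexes, and both arrays lay above 1. Btg1 was at 0.87 and 0.73 (0.80 ± 0.10, adjusted p = 0.00129). Lower in males were Gadd45b (-0.67 ± 0.17), Nfil3 (-0.47 ± 0.08), Myc (-0.44 ± 0.07), Ier3 (-0.44 ± 0.10) and Nr4a3 (-0.33 ± 0.09). With array 2 left out 2 members were called, and with array 1 left out 3. Gadd45g was at 1.44 and -0.21 and was not called (0.61 ± 0.26, limma, adjusted p = 0.165). Its array values still hold a dye effect (coefficient 0.42 ± 0.11), so their opposite signs are not read as opposite directions.

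Between hypophysectomised males and females 1 of 35 members was called, Cyr61 at 0.30 and 0.45 (0.38 ± 0.06, adjusted p = 0.0374, and 0.32 ± 0.06, adjusted p = 0.0544, by a further probe), against 1.17% of 8890 named genes (0.472% higher and 0.697% lower). At an unadjusted p under 0.05 (limma) there were 2 higher and 3 lower members. The share of all genes at that limit is not given, so these 2 counts are not read as a trait of the members. Crem, which differed 2.37-fold between the untreated sexes, was at 0.03 and 0.18 (0.10 ± 0.14). Without either array no member was called, as was so with an offset of 16 and with Agilent's processed signals.

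In none of the 6 comparisons were 11 members called (Fos, Fosb, Fosl1, Fosl2, Egr3, Klf10, Maff, Nr4a1, Nr4a2, Dusp6 and Ctgf). The share of all named genes called in none was not computed, so this count is not read as a trait of the members. Fosl1 was tested in no comparison, Maff in 1, Fos in 3 and Egr3 in 4. For Fosb, Fosl2, Egr3 and Maff the tested ratios lay between -0.10 and 0.06. For Klf10, Nr4a1 and Dusp6 the SE was 0.80, 0.70 and 0.49, so a 2-fold difference (1 on this scale) was not detectable. The sums around the loop of the 4 RNAs without GH closed to a median of 0.05 over 34 members, against 0.06 over 23859 probes.

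Genes related to the members were drawn from lists chosen from general knowledge and from the members' families, with earlier results of these data known. The list counts stand beside these shares of all named genes tested. After 1 injection 9.33% were higher and 7.33% lower, and after 2 injections 18.5% and 18.2%. After hypophysectomy 20.1% were higher and 20.9% lower in males, and 19.0% and 20.6% in females. Between untreated sexes 9.33% were higher and 8.94% lower in males. A count near its share is not read as a response of the list. Of 37 tested family relatives 11 were higher and 2 lower after 2 injections (median 0.00), and of 34 tested after 1 injection 2 were higher and 4 lower (median -0.06). Klf15, a glucocorticoid-responsive Krüppel-like factor, had -1.10 ± 0.12 after 1 injection and -1.45 ± 0.12 after 2, and 1.10 ± 0.12 and 1.01 ± 0.12 after hypophysectomy of males and females. Klf9, a thyroid hormone and glucocorticoid target, had 0.82 ± 0.10 and 0.87 ± 0.10 with GH. Tob1, an antiproliferative relative of Btg2, had 1.24 ± 0.23 after hypophysectomy of males and 0.96 ± 0.23 of females. After hypophysectomy 12 of 32 relatives were higher and 5 lower in males, and 5 of 32 higher and 4 lower in females.

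Of a further 38 early response genes tested after 2 injections 22 were higher and 2 lower (median 0.26), and of 36 after 1 injection 12 were higher and 3 lower (median 0.24). After hypophysectomy 11 of 34 were higher and 7 lower in males and 10 of 33 higher and 4 lower in females. The chemokine Ccl2 had 2.73 ± 0.07 (adjusted p = 5.74e-07) after 2 injections, and it differed from 1 injection by 2.43 ± 0.10 (adjusted p = 2.9e-05). The neutrophil chemokine Cxcl1 had 2.16 ± 0.35 and 2.43 ± 0.35. The pseudokinase Trib3 had 2.32 ± 0.26 after 2 injections and -1.84 ± 0.26 after hypophysectomy of males, and the EGF receptor inhibitor Errfi1 had 1.75 ± 0.51 after 2 injections. Cdkn1a, the cell cycle inhibitor p21, was higher after 2 injections than after 1 by 1.84 ± 0.46. Hes1, a Notch target, had -0.98 ± 0.11 after 1 injection and was higher after 2 than after 1 by 1.00 ± 0.15.

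Of 34 kinases and upstream factors tested, 16 were higher and 6 lower after 2 injections (median 0.16), and of 33 tested after 1 injection 3 were higher and 2 lower (median 0.03). After hypophysectomy 7 were higher and 9 lower in each sex, of 33 tested in males and 34 in females. In the p38 branch the kinase Map2k3 had 0.76 ± 0.06 and 1.04 ± 0.06, p38 itself (Mapk14) 0.74 ± 0.05 and 0.99 ± 0.05, and the parallel kinase Map2k6 -0.81 ± 0.13 and -1.77 ± 0.13. Between untreated sexes Map2k6 had 1.27 ± 0.13 and Map2k3 -0.89 ± 0.06. The NF-kappaB subunits Nfkb1, Rela and Nfkb2 were higher after 2 injections than after 1 by 0.90 ± 0.09, 0.65 ± 0.09 and 0.61 ± 0.08. Of 21 heat shock and oxidative stress genes 7 were higher and 2 lower after 1 injection and 10 higher and 3 lower after 2, with medians of 0.06 and 0.13. After hypophysectomy 5 were higher and 7 lower in males and 4 higher and 7 lower in females. The chaperone Hspa5 had 0.73 ± 0.17 and 1.52 ± 0.17, and Hspa8 0.61 ± 0.12 and 1.12 ± 0.08. The ATF4-linked stress factor Ddit3 had 1.01 ± 0.07 and 1.29 ± 0.07 after hypophysectomy of males and females and -0.65 ± 0.07 after 1 GH injection.

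Markers of other cells were called in some of these comparisons. The shares of all named genes given with the gene lists apply to these counts too. Of 9 macrophage markers 6 were higher and 1 lower after 1 injection and 0 were called after 2 (limma), with medians of 0.25 and 0.00. Of 4 neutrophil markers 3 were higher after 1 injection and 2 after 2, with medians of 0.62 and 0.75. Of 8 endothelial markers 5 were higher and 1 lower after hypophysectomy of males and 4 higher and 0 lower in females, with a median of 0.21 in each. Between untreated sexes 6 of 9 macrophage markers were lower and 1 higher in males. After hypophysectomy of males 3 of 9 stellate markers were higher and 3 lower, 3 of 5 bile duct markers higher and 0 lower, 4 of 11 lymphocyte markers higher and 1 lower, and 1 of 3 erythroid markers higher and 2 lower. Of the 10 reference genes of GH action 5 of 9 tested were higher after 1 injection and 7 of 10 after 2, and 0 were lower in either (limma). The part of these cells in the members' ratios was not tested.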

How the data were processed

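Per the file headers, the deposited values are the intensity of each of 45018 spots and of its local background in both colours, from Agilent Feature Extraction 9.1.3.1. That software also gave the deposited processed intensity, its log10 ratio (red over green), and flags of 0 or 1. The authors' deposited ratios of the whole series, an alternative here, proved on comparison to be log2 values of channel 2 over channel 1 (r of 0.99998 or above with the processed signals of the same array, column medians -0.13 to 0.15, so not centred). RNA was extracted with Trizol and amplified before labelling, per the labels' protocols.

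Intensities were corrected with normexp (offset 50), then loess was run per array, in limma 3.58.1 (R 4.3.3, the data.table package at version 1.17.8). Control spots (1639) and outlying ones were given weight 0, and 0 spots were saturated. The labelled dyes set each ratio's direction, channel 2 over channel 1. For 1 array of the 1-injection comparison the treatment label omits GH, so the title gave its group. Spots of a probe were averaged (41012 probes). Tested were probes with either RNA of the comparison well above background on both its arrays (29008 probes in any comparison). A limma model over all 12 arrays had 6 comparison coefficients and 1 dye coefficient (5 residual degrees of freedom, prior 3.08, prior SD 0.101), with Benjamini-Hochberg adjustment over all probes tested in a comparison. The sex difference in response was the mean of its 2 estimates around the loop of 4 RNAs. The fit was tested on simulated data. Dye coefficients were called at 3605 probes. All 4 GH arrays were on slide 1, and replicates 1 and 2 of each other comparison were on slides 2 and 3, so array values there are also slide values. P-values measure the spread between these arrays, and each GH pool is a single sample.

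The members and lists were chosen with earlier results of these data known. Lists covered family relatives, further early genes, kinases and upstream factors, heat shock and oxidative stress genes, reference genes of GH action, and markers of hepatocytes, macrophages, neutrophils, endothelium, stellate cells, bile duct, lymphocytes and erythroid cells. Array values were given mainly for members called with an absolute log2 ratio of 1 or more, and up to 4 called genes per list and comparison were named. Array values of some other members were added after their values were seen. Alternatives changed the background correction, normalization, filter, outliers, dye term, replicate block, slide, arrays fitted, probe rule and replicates.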

Additional observations from a re-analysis of the deposited data

Results flagged for a closer look

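The response to hypophysectomy differed between males and females, by the test of the difference itself (limma), for 6 of 34 members. That is 17.6%, near the 15.5% of 8371 named genes, and the count was not stable when arrays were left out, as given above. Crem had a difference of -1.12 ± 0.14 (adjusted p = 0.00142) and Btg1 of -0.72 ± 0.10 (adjusted p = 0.00293), both with the lower response in males. Nfil3 had 0.54 ± 0.08 (adjusted p = 0.00355), Nr4a3 0.46 ± 0.09 (adjusted p = 0.0102), Myc 0.27 ± 0.07 (adjusted p = 0.0495) and Cyr61 0.23 ± 0.06 (adjusted p = 0.0446). All of these had the higher response in males, which for Nfil3 and Myc is a smaller fall. These are differences in response and not in level between the sexes. By further probes the differences were 0.17 ± 0.06 for Cyr61 (adjusted p = 0.093) and 0.17 ± 0.07 and 0.08 ± 0.07 for Nr4a3 (not tested).

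The response to 2 GH injections differed from that to 1 for 7 of 35 members (20%) by the same kind of test, against 13.0% of 9097 named genes. Most of these calls were lost when either array was left out, as given above. Atf3 had a difference of 2.69 ± 0.27 (adjusted p = 0.00125), Klf6 of 2.29 ± 0.25 (adjusted p = 0.00178), Btg2 of 1.92 ± 0.30 (adjusted p = 0.00785) and Rhob of 1.58 ± 0.35 (adjusted p = 0.0286). Jund had 1.02 ± 0.19 (adjusted p = 0.0152), Cyr61 0.81 ± 0.09 (adjusted p = 0.00176) and Myc -1.02 ± 0.11 (adjusted p = 0.00156). The dimmer probe of Jund had 0.14 ± 0.09 and was not tested. The regimens also differ in the pool of animals and in the times from first injection to kill, and these cannot be told apart from the number of injections.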

How the results depend on the processing

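Each count of called members was recomputed under 16 alternatives (limma). The main counts were 7 (males over females), 15 and 12 (hypophysectomy of males and of females), 1 (hypophysectomised males over females), 12 and 23 (1 and 2 GH injections), 6 (sex difference in response) and 7 (2 against 1 injections), and they are given in this order below. With median centring in place of loess they were 0, 1, 0, 0, 0, 1, 0 and 0. With each comparison's own arrays and no dye term the counts outside 1.5 times were 11, 7, 20, 0, 13, 2 and 3 for all but 1 injection. Without a dye term the counts between untreated sexes, between hypophysectomised sexes and of the sex difference were 3, 0 and 3. The count of 1 between hypophysectomised sexes was 0 with processed signals, offset 16 and the authors' ratios as well. With replicate 1 or 2 left out they ran 2 to 3, 13 to 14, 6 to 7, 0 to 0, 6 to 6, 12 to 19, 21 to 24 and 1 to 1. For hypophysectomy of males the split of 11 higher and 4 lower became 4 and 9 without replicate 2 and 4 and 3 with own arrays. A slide term and a term for the hypophysectomised male pool (array 1 or 2), both chosen after seeing the data, were added. The pool term gave 16, 23, 25, 9, 19, 29, 15 and 20, and the slide term kept all 8 counts within 1.5 times. The split of the sex difference, 4 higher and 2 lower, became 2 and 2 with processed signals, offset 16 and the authors' ratios. Of 528 recomputed values of named members 469 kept direction and call, 59 kept direction and lost the call, and 0 reversed. Median centring lost 31 of 33 calls (Cyr61 after hypophysectomy of males at 1.85, adjusted p = 0.0359, and Atf3 after 2 injections at 3.01, adjusted p = 0.0381, were kept), leaving out replicate 1 or 2 lost 11 and 9, own arrays lost 5, the replicate block 2, and the authors' ratios lost that of Jun after 1 injection (adjusted p = 0.05). The cause was not tested, except that leaving out arrays or fitting own arrays leaves fewer samples. The replicate block gave 6, 14, 11, 1, 9, 21, 5 and 7. The correlations of half-differences ran from -0.67 to 0.84 over 15 pairs, 6 of them over 0.1, so a block of 1 sign over all comparisons does not pair the arrays. Turned to follow the hypophysectomised male RNA, all 6 pairs of the comparisons that hold it were positive (0.32 to 0.84), which is what the pool term fits.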

Other observations

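Among listed genes outside the members, several differed between the sexes in their response to hypophysectomy. The chemokine Cxcl1 had 0.39 ± 0.35 in males and 2.56 ± 0.35 in females, a difference of -2.15 ± 0.35 (limma, adjusted p = 0.00555). The pseudokinase Trib3 had -1.84 ± 0.26 in males and -0.70 ± 0.26 in females, a difference of -1.15 ± 0.26 (adjusted p = 0.0227). The p38 kinases' activators moved in opposite directions: Map2k6 differed by -0.80 ± 0.13 (adjusted p = 0.00471) and Map2k3 by 0.76 ± 0.06 (adjusted p = 0.000102). The chaperone Hspa8 had 0.32 ± 0.08 in males and -0.25 ± 0.08 in females, a difference of 0.58 ± 0.08 (adjusted p = 0.00467).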
